A study of Mus musculus with 375 samples.

Results

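The cells described here are 119 of 367 single cells that had been sorted for Lgr5 from the mouse small intestine and that carried transcripts of the G2 and M phases of the cell cycle. A cell entered the analysis with at least 2000 genes above 0 in TPM, a measure of transcript abundance scaled to the same total in every cell, and it was placed in G2/M when at least 3 of the 7 transcripts Ccnb1, Ccnb2, Plk1, Prc1, Nusap1, Fam83d and Kif18b stood at 10 TPM or more. Of 375 cells 8 failed the filter on genes, and none of those 8 carried 3 of the markers. The cells were chosen by these measured values, so their difference from the 248 other passing cells is given as a description, without a test.

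Mice were fed either control chow or high-fat food (HFD), and Lgr5-positive cells were sorted by flow cytometry into wells and sequenced with Smart-seq2, which copies the poly(A) RNA of a single cell along its whole length. Sample titles give 4 sets, 2 per diet (control 1 and 2, HFD 1 and 2), and values by set follow that order throughout. Strain, reporter allele, age, and the make-up and duration of the diets are not stated in the labels. Nor do the labels say whether a set is 1 mouse or a pool, so p-values cover no spread beyond these sets, which may be technical. The SEs and p-values from limma also borrow variance from other genes, so they do not measure the spread of 1 gene's sets alone.

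Lgr5 marks the crypt base columnar cells, the stem cells at the bottom of the intestinal crypt, which divide often and feed the progenitors above them. In G2 and M phase a cell that has copied its DNA activates Cdk1 with cyclin B, condenses its chromosomes, attaches them to a spindle and splits. Many transcripts for these steps accumulate late in the cycle through promoter elements bound by the MuvB complexes and by NF-Y, and many of their proteins are removed by the anaphase-promoting complex.

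By set, 28 of 93 (30.1%, 95% Clopper-Pearson interval 21.03 to 40.5%), 31 of 91 (34.1%, 24.45 to 44.75%), 33 of 91 (36.3%, 26.4 to 47.01%) and 27 of 92 passing cells (29.35%, 20.3 to 39.8%) met the rule. The diets overlapped: both the highest and the lowest share belonged to an HFD set. The mean share was 32.1% ± 2.80 on the control diet and 32.8% ± 4.89 on the HFD (SD, n = 2 sets each; exact two-sided permutation p = 1, where the smallest p possible is 0.333). The difference of 0.719 percentage points changed sign with the ribosomal RNA precursor Rn45s left out of the total (−0.344), without control 1 (−1.26) and without HFD 1 (−2.74).

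**Figure D1:**
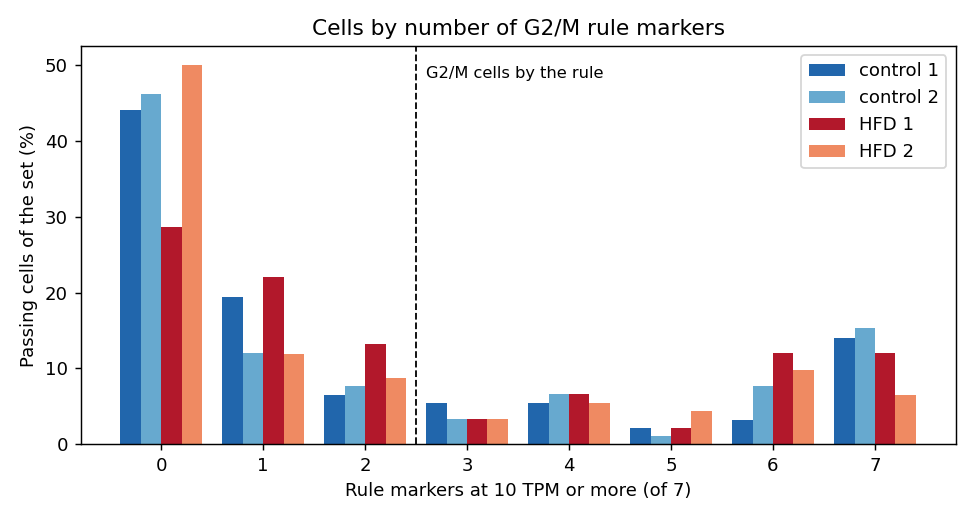
Share of the passing cells of each set (y axis, percent) by the number of the 7 rule markers at 10 TPM or more (x axis), 1 bar per set. Cells to the right of the dashed line met the rule; over all sets 155 of 367 cells had no marker and 44 had all 7.

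Depth in reads is unknown, since TPM keeps none. In every set the G2/M cells held more genes above 0 TPM than the other cells, with medians of 7395, 6997, 7691 and 6979 against 6691, 5757, 6266.5 and 6013. Rn45s took similar shares of TPM in both kinds of cell, 38.5%, 24.3%, 27.04% and 18.3% in G2/M cells and 39.4%, 24.7%, 26.7% and 18.7% in the others. Epcam, which marks epithelium, was found at 1 TPM or more in all 119 G2/M cells. Ptprc, the pan-leukocyte antigen, Chga of enteroendocrine cells and Dclk1 of tuft cells were found in none, and 0 of 28, 31, 33 and 27 cells allows shares of up to 10.7%, 9.68%, 9.09% and 11.1% by set when 3 cells are taken as the limit, counting error only (95% Clopper-Pearson upper bounds 12.3%, 11.2%, 10.6% and 12.8%). No G2/M cell carried 3 or more leukocyte, stromal, tuft or enteroendocrine markers at 10 TPM. At least 3 of the 16 enterocyte markers stood at 10 TPM or more in all 119 G2/M cells and in 246 of 248 others. For goblet cells, at least 3 of the 10 markers stood at that level in 8 G2/M cells (2, 1, 2 and 3 by set), and at least 3 of the 9 Paneth markers in 8 (2, 0, 0 and 6).

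The rule markers were not equally common among the chosen cells. Ccnb2, cyclin B2, stood at 10 TPM or more in 94.1% of them and Plk1, polo-like kinase 1, in 93.3%. Prc1, which bundles the microtubules of the central spindle, followed in 88.2%, Ccnb1, cyclin B1, in 86.55% and Nusap1, a spindle-associated protein, in 85.7%. Fam83d, a spindle protein, and Kif18b, a microtubule-depolymerizing kinesin, met the limit in 55.5% and 53.8%. Among the other cells the shares ran from 2.02% for Kif18b to 15.7% for Ccnb2.

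Ccnb1 averaged 145, 215.5, 181 and 213 TPM in the G2/M cells of the 4 sets and 6.73, 5.14, 11.8 and 9.59 TPM in the other cells. Over single G2/M cells it ran from 0 through a median of 137 to 1007.3 TPM, and 14 cells were at 0. Plk1 averaged 138, 175, 133 and 162 TPM against 3.77, 0.9575, 10.8 and 0.851 TPM. No single marker was present in every G2/M cell. At the limit of the rule, the 33 cells with 2 markers had a median score of 2.78 for a published list of G2/M genes without the rule markers, and the 14 cells with 3 markers had 3.53. The score is the mean log2(TPM + 1) over a list within a cell, and it was 1.35 in the 155 cells with no marker and 6.09 in the 44 with all 7.

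Promoters of 10 genes are shown because the first 9 genes stood high in the same cells and several share letters near their start. They are examples and do not stand for all higher genes, whose shares follow below. The windows run from 120 bases before the transcription start to 30 after it, 5′ to 3′ on the gene's strand, from RefSeq on GRCm38.p6. Capitals mark TTTGAA, or on the opposite strand its complement TTCAAA, the letters of the cell cycle genes homology region that MuvB complexes recognize. They also mark CCAAT, or on the opposite strand its complement ATTGG, the box that NF-Y binds. Matches of both motifs can share a base. Pcna, a replication gene, closes the set as 1 that was not 2-fold higher.
Ccnb1 (chr13:100786457-100786606, minus strand): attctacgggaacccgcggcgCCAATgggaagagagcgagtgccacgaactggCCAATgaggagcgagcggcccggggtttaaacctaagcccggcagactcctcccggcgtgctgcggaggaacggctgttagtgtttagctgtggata
Ccnb2 (chr9:70421525-70421674, minus strand): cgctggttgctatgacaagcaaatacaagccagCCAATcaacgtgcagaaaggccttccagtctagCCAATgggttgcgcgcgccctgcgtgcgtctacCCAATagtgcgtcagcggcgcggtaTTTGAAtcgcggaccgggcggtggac
Prc1 (chr7:80294331-80294480, plus strand): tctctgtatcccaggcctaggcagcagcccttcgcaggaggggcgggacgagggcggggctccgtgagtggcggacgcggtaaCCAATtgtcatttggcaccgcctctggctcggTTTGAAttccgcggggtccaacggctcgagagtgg
Kif18b (chr11:102925095-102925244, minus strand): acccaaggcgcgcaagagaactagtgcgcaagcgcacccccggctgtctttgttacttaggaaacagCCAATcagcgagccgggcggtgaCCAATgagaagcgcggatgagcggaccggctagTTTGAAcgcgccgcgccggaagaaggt
Cdc20 (chr4:118437314-118437463, minus strand): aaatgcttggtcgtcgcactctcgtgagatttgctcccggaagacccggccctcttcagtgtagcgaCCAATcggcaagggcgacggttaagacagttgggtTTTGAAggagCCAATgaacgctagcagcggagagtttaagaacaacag
Spc25 (chr2:69206184-69206333, minus strand): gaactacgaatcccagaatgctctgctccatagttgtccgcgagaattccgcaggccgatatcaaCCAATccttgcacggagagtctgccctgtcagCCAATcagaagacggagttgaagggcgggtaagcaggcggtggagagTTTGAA
Espl1 (chr15:102296173-102296322, plus strand): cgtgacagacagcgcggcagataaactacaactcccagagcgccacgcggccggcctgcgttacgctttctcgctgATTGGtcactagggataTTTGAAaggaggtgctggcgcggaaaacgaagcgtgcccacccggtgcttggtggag
Top2a (chr11:99024160-99024309, minus strand): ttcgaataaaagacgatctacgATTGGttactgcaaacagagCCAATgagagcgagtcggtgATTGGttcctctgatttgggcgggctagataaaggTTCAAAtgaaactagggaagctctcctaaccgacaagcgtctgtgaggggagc
Cdk1 (chr10:69352883-69353032, minus strand): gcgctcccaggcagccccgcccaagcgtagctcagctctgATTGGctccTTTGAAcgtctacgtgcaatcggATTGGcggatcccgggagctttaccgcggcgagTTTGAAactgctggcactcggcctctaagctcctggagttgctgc
Pcna (chr2:132253151-132253300, minus strand): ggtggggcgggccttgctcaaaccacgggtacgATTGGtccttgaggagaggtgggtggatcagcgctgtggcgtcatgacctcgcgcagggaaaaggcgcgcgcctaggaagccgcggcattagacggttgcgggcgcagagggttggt

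Ccnb2 held 1 TTTGAA and 3 CCAAT in the printed window, Cdk1 2 of each, and Ccnb1 and Pcna no TTTGAA. Other spellings were not marked: Ccnb1 holds the near letters GTTTAA 43 bases before its start, for which no share over all promoters is given. Over the longer window of 250 bases before to 50 after the start, TTTGAA was found in 5 of the 7 rule markers (Ccnb1 and Nusap1 lacked it) and CCAAT in 6 of 7 (Nusap1 lacked it). Among all 27025 promoters of that length 18.1% held TTTGAA, 37.9% held CCAAT and 7.12% held both. Of the 242 other genes at least 2-fold higher in G2/M cells in each set, described next, 195 matched a promoter, and 51.8% of those held TTTGAA, 72.8% CCAAT and 43.1% both. CCAAT occurred at least 2 times in 47.7% of them and in 12.2% of all promoters. Among higher genes not printed, Hist2h3b, Hist1h2ab and Hist1h2af held no TTTGAA, and Ankle1, Kif2c and Anln no CCAAT. Among the 11672 genes tested for expression the shares were 12.4% with TTTGAA, 40.1% with CCAAT, 16.1% with at least 2 CCAAT and 5.56% with both, but only 79.6% of those genes matched a promoter, under the 80% required, so that check is void. By role, TTTGAA was found in 15 of 19 spindle promoters, 8 of 10 cytokinesis promoters, 13 of 30 kinetochore promoters and 6 of 20 of the anaphase list. On the S phase list, where 8 of 43 genes were higher, 31 promoters matched. That share is also under the 80% required, so the list gives no comparison. Of these 31 promoters 71% held CCAAT, 45.2% at least 2 CCAAT and 16.1% TTTGAA. A match describes letters and not a bound site.

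Over 11672 genes averaging 1 TPM or more, 249 (2.13%) were at least 2-fold higher in the G2/M cells than in the other cells of the same set in all 4 sets, and 12 (0.103%) were at least 2-fold lower. Ratios are log2 of (mean TPM + 1) in G2/M over other cells of a set, which understates the gap of low genes. Their median over all genes was 0.00. Of the 249 genes, 151 belong to the cell cycle lists used here, the 7 rule markers included. Among cells with 5904 to 7139 genes (10, 20, 6 and 17 G2/M cells by set), 168 genes were higher and 155 of them were among the 249.

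Transcripts for entry into mitosis stood higher. Of 19 genes beyond the rule markers, 14 were at least 2-fold higher in every set and none was lower, with a median ratio of 2.83. Cdk1, the kinase that cyclin B activates, averaged 87.2, 145.5, 113 and 150.4 TPM in G2/M cells and 9.27, 9.245, 9.93 and 22.2 TPM in the others. Ccna2, cyclin A2, averaged 228, 262, 307 and 262 TPM against 11.5, 13.5, 23.85 and 25.3 TPM. For both genes the lowest G2/M set lay above the highest set of other cells. Ccnf, cyclin F (chromosome 17, 24222198 to 24251484), averaged 70.1, 78.55, 73.7 and 77.5 TPM against 2.405, 0.938, 1.16 and 2.38 TPM. Aurka, the centrosomal kinase, had a mean ratio of 4.04. Pkmyt1, which holds Cdk1 inactive, was above 0 in every set at 0.74 to 1.21 and so missed 2-fold in some.

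Spindle genes followed the same pattern, with 20 of 22 at least 2-fold higher and a median of 3.15. Tubb4b, a beta tubulin, was found in all 119 cells and averaged 1242.4, 1596.8, 1731.5 and 1730 TPM against 203, 157, 295 and 226 TPM. Kif22, a chromokinesin, averaged 107, 96.75, 138 and 138 TPM against 3.66, 7.55, 8.57 and 1.93 TPM. Their sets did not overlap between the kinds of cell. Kif2c, a depolymerizing kinesin at centromeres (chromosome 4, 117159639 to 117182639), had ratios of 3.83 to 5.26 over the sets, and Tuba1c, an alpha tubulin, had 2.71 to 3.09. Stmn1, a tubulin-binding protein, reached only 0.78 to 1.31 and was already at 273.5, 309.9, 465 and 504 TPM in the other cells.

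At the kinetochore, where the chromosome meets the spindle, 25 of 35 genes were at least 2-fold higher and the median was 2.12. Spc25 of the Ndc80 complex (chromosome 2, 69193895 to 69206194) averaged 80.7, 140.2, 107 and 123 TPM against 4.48, 5.199, 3.33 and 5.65 TPM. Its partner Spc24 was found in 239 of 248 other cells as well, with a mean ratio of 2.17 (2.10 to 2.30). Cenpa, the centromeric histone H3, had a mean ratio of 2.96. Checkpoint and chromosomal passenger genes, which hold back anaphase until chromosomes are attached, were at least 2-fold higher in 10 of 11 cases, with a median of 3.39. Aurkb, the kinase of the passenger complex (chromosome 11, 69045647 to 69051664), averaged 101, 236, 206 and 206 TPM against 4.04, 4.78, 6.74 and 6.07 TPM. Its partners Birc5, Cdca8 and Incenp had mean ratios of 3.67, 3.05 and 3.39, and the checkpoint genes Mad2l1 and Bub3 had 2.53 and 1.68.

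Condensin, topoisomerase and related chromosome genes were at least 2-fold higher in 16 of 20 cases, with a median of 2.39. Top2a, which untangles sister DNA (chromosome 11, 98992943 to 99024189), averaged 259, 326, 316 and 288 TPM against 14.01, 13.4, 19.9 and 22 TPM and was found in 118 of 119 G2/M cells. Mki67, the proliferation antigen that coats mitotic chromosomes, averaged 106, 96.7, 98.9 and 84.9 TPM against 8.504, 9.055, 13.4 and 5.375 TPM. All 11 cytokinesis genes beyond Prc1 were at least 2-fold higher, with mean ratios from 2.46 to 4.55. Kif20a, a kinesin of the midzone, had a mean ratio of 4.48, Kif23 of the centralspindlin complex 3.90, its partner Racgap1 3.81, and Anln, an actin and septin scaffold, 3.83.

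The anaphase list split. Of its 21 genes 6 were at least 2-fold higher and its median was 0.39. The 6, named after their values were seen, were Cdc20 and Fzr1, which activate the anaphase-promoting complex, Ube2c and Ube2s, its ubiquitin carriers, its inhibitor Fbxo5, and the separase Espl1. Cdc20 (chromosome 4, 118432901 to 118437352) averaged 209, 241, 203 and 211 TPM against 13.02, 10.5, 10.6 and 11.2 TPM. Ube2c averaged 470.4, 814.5, 706 and 758 TPM against 27.2, 32.7, 61.15 and 65.9 TPM. Espl1 had a mean ratio of 4.20, and Fzr1 had the lowest of the 6, 1.42. Core subunits of the complex stood near 0, with mean ratios of 0.07 for Cdc16, 0.16 for Anapc13 and 0.36 for Anapc5.

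**Figure D2:**
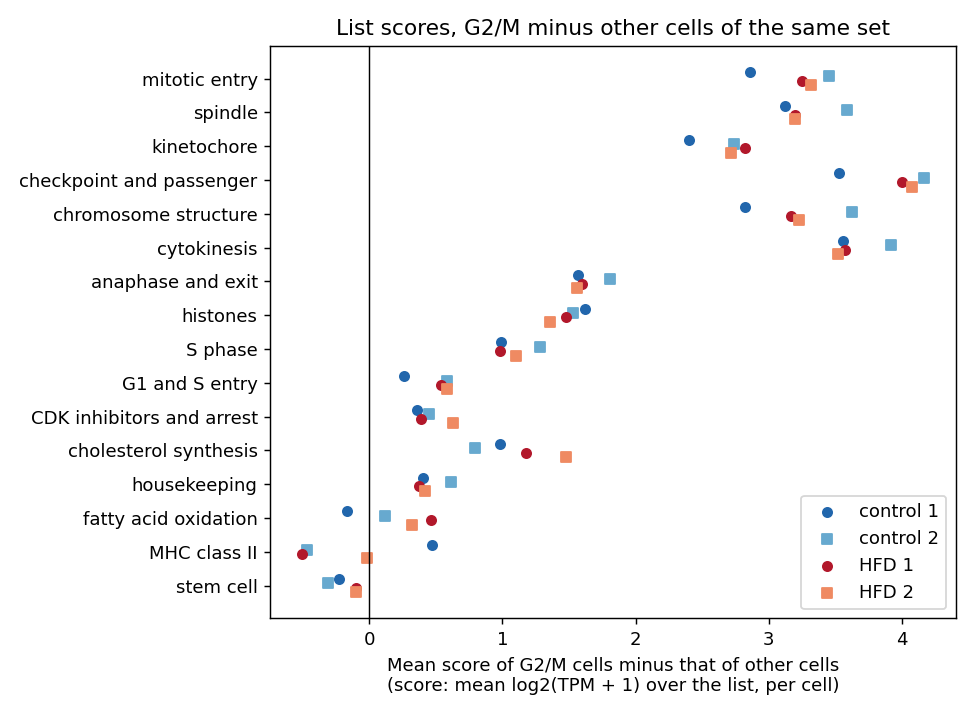
Mean score of the G2/M cells minus that of the other cells (x axis, difference of mean log2(TPM + 1) over a list) for 16 gene lists without the rule markers (y axis), 1 point per set. The 6 lists from mitotic entry to cytokinesis lie between 2.40 and 4.17, the anaphase list between 1.56 and 1.81, and the stem cell list between −0.31 and −0.10.

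Histone transcripts had some of the widest gaps. Most replication-dependent histone mRNAs end without a poly(A) tail, so a method that primes on poly(A) sees only part of them, and near-identical copies can share reads, which makes single histone genes uncertain. Of 54 tested histone genes 30 were at least 2-fold higher in every set and none was lower. Hist1h2ao, an H2A gene (chromosome 13, 21810465 to 21810944), averaged 636, 1054.7, 1107.3 and 1441.8 TPM in G2/M cells and 8.42, 13.95, 36.8 and 55.4 TPM in the others. Hist2h3b, an H3 gene, averaged 428, 239, 238 and 234 TPM against 5.085, 2.71, 5.36 and 4.69 TPM. Hist1h2bc differed from them, with ratios of −1.46 to 0.92.

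The S phase list was mixed. Of 43 genes 8 were at least 2-fold higher in every set, 1 was lower and 34 were neither, with a median of 0.42. Among the 8, named after their values were seen, were Rrm2, Mlf1ip, Cdc45, Exo1, Atad2 and E2f8. Rrm2, a subunit of ribonucleotide reductase, averaged 73.6, 79.6, 86.9 and 148 TPM against 10.1, 19.8, 29.1 and 29.6 TPM. Pcna, the replication clamp, stood close to level with 177, 183, 369 and 401 TPM against 166, 153.5, 294 and 308 TPM. Mcm6, a subunit of the replicative helicase, was below 0 in all sets at −0.53 to −0.26. Ung, uracil-DNA glycosylase, was the lower gene, at 17.8, 16.1, 17.3 and 11.7 TPM against 41.4, 43.7, 54.7 and 55.1 TPM.

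Of 20 genes of G1 and entry into S phase 2 were higher, E2f7 and E2f8, repressors of the E2F family, with mean ratios of 2.07 and 2.15. Cdt1, the licensing factor whose protein is destroyed once replication starts, was below 0 in all sets at −0.94 to −0.30. Of 13 inhibitors of cyclin-dependent kinases and arrest genes 1 was higher: Cdkn2d, which encodes p19, averaged 12.2, 17.4, 17.6 and 27.85 TPM against 2.204, 0.338, 0.705 and 0.6595 TPM.

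**Figure D3:**
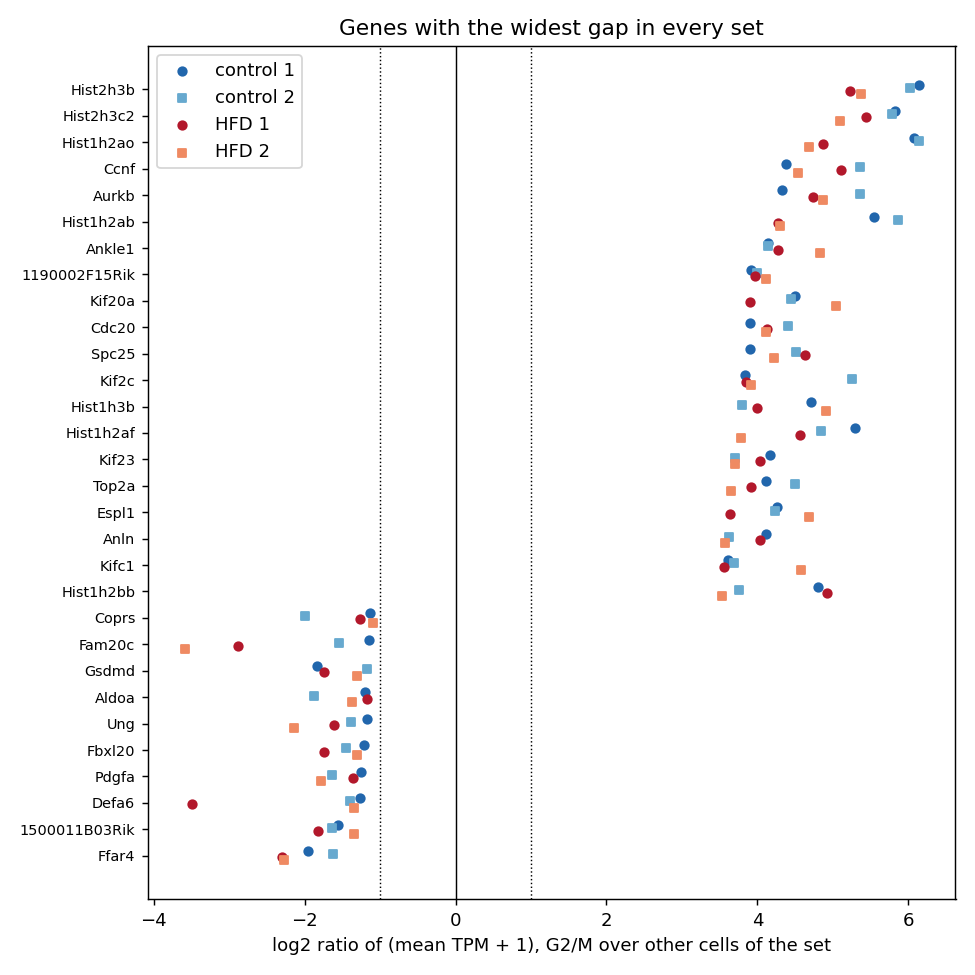
log2 ratio of (mean TPM + 1) in G2/M over other cells (x axis) for the 20 genes outside the rule markers with the highest smallest ratio and the 10 with the lowest largest ratio over sets (y axis), 1 point per set, with dotted lines at 2-fold. No point of the upper genes lies under 3.53 and no point of the lower genes above −1.09.

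Of the 12 lower genes, Ung is the only one on a cell cycle list. Aldoa, an aldolase of glycolysis, averaged 158, 115, 203.5 and 209.8 TPM against 363, 426, 458 and 544 TPM, and its relative Aldoc 2.28, 4.21, 7.84 and 6.71 TPM against 14.1, 19.3, 17.2 and 14.6 TPM. Gpd1, a glycerol phosphate dehydrogenase, averaged 41.8, 32.3, 52.02 and 37.2 TPM against 100.5, 83.1, 133.5 and 77.9 TPM. Pdgfa, a growth factor, averaged 48.99, 51.3, 30.8 and 39.1 TPM against 118, 161, 80.6 and 137 TPM. Ffar4, a receptor for long-chain fatty acids, was found in 5 of 119 G2/M cells and 29 of 248 others. These genes were less settled than the higher ones: among cells with 5904 to 7139 genes 38 genes were lower, 1 of them among the 12. With any 1 set left out the count was 49, 36, 42 or 43 (without control 1, control 2, HFD 1 or HFD 2), since fewer sets had to show the gap.

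Stem cell transcripts were present. Of 18 stem cell genes none was 2-fold higher or lower in every set, 12 were below 0 in all sets, and the median ratio was −0.32. Lgr5 itself was found at 1 TPM or more in 112 of 119 G2/M cells (94.1%) and 236 of 248 others (95.2%). It averaged 143, 78.3, 90.3 and 94.7 TPM against 175, 139.9, 162 and 148 TPM, lower in the G2/M cells of each set. Olfm4, a secreted glycoprotein of these stem cells, averaged 6518.1, 7196.5, 8123.7 and 10135.6 TPM against 7131.1, 10336.7, 10050.7 and 12449.4 TPM. Ascl2, the stem cell transcription factor, had ratios of −0.41 to 0.28.

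The cholesterol list stood above 0 with few 2-fold gaps. Its 22 genes had a median ratio of 0.46, 11 were above 0 in all sets, and the score was higher by 0.98, 0.79, 1.18 and 1.48 in G2/M cells. Of the 22 genes 1 was at least 2-fold higher in each set and none was lower. The housekeeping list was itself higher by 0.40, 0.61, 0.37 and 0.42. Genes above 0 TPM per cell were also more numerous in these cells, and the part of that number was not tested.

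The G2/M cells differed among themselves by how many markers they carried. The median S phase score was 2.58 with no marker, 3.31 with 3, 5.30 with 4, 4.46 with 5 or 6 and 3.38 with all 7. Pcna had medians of 184, 560.1, 198 and 54.4 TPM in cells with 3, 4, 5 or 6, and 7 markers (14, 22, 39 and 44 cells). Slbp, which binds histone mRNA and whose protein is lost at the end of S phase, had 133, 162, 119 and 29.6 TPM. Cdc20 ran the other way with 53.6, 55.2, 138 and 279.9 TPM, as did Aurkb with 0, 129, 207.5 and 249.7 TPM. As medians over the cells of all sets, 4 markers thus went with both S phase and mitotic transcripts, and 7 with mitotic ones and less Pcna. Single cells that held both kinds were not counted.

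By set, mean Pcna was 201.5, 467, 476 and 708 TPM in cells with 3 or 4 markers, 331, 78.3, 419 and 388 TPM with 5 or 6, and 98.15, 59.7, 222 and 20.8 TPM with 7. Each set was lowest at 7 markers, but control 1 was highest at 5 or 6. Mean Cdc20 was highest at 7 markers in each set (255, 385, 275 and 394 TPM), and it was lower at 5 or 6 than at 3 or 4 in control 1 and HFD 1. Markers were counted on these same libraries, so no test is given. The median number of genes above 0 TPM also moved with the marker number, from 6916.5 at 3 to 7619 at 7, and its part was not tested.

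**Figure D4:**
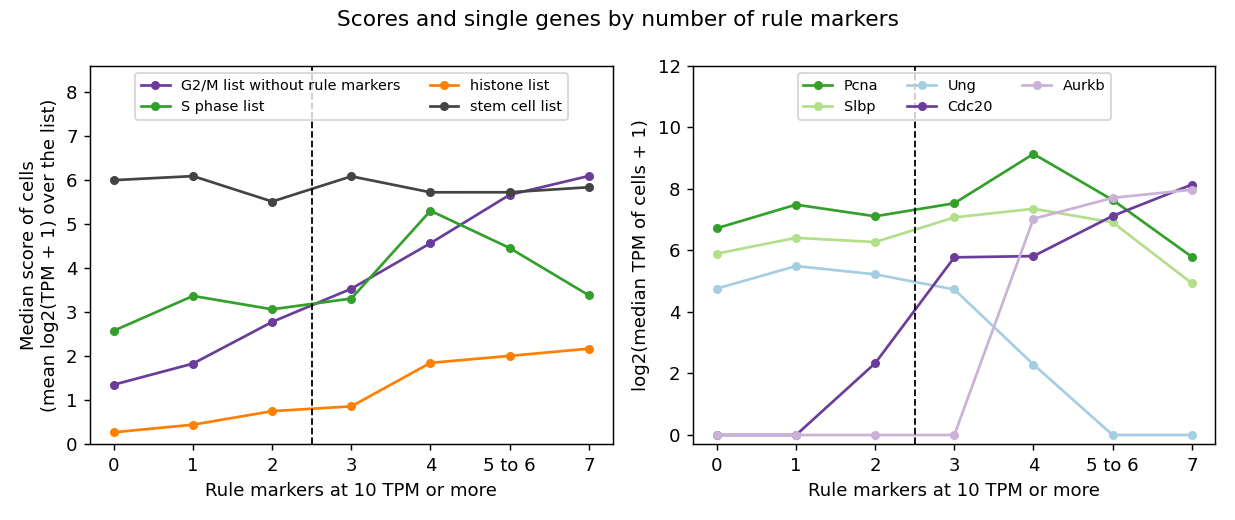
Left, median score of cells (y axis, mean log2(TPM + 1) over a list) by number of rule markers at 10 TPM or more (x axis); right, log2 of (median TPM + 1) of single genes. The S phase score peaks at 4 markers (5.30), where median Pcna is 560.1 TPM, while the G2/M score climbs from 1.35 to 6.09 and Cdc20 from 0 to 279.9 TPM; the dashed line is the rule's limit.

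Diet was then compared within the G2/M cells, a contrast the choice of cells did not use beyond the rule markers, over the 4 set means with limma. Of 11677 genes 9 (0.0771%) passed an adjusted p of 0.05, 4 higher and 5 lower on the HFD, and 913 had an unadjusted p below it. Mitotic genes were not among the 9. Cdc20 had a log2 fold change of −0.11 (SE 0.27), Top2a 0.05 (SE 0.28), Mki67 −0.14 (SE 0.28) and Cdk1 0.21 (SE 0.31). None of 52 genes of the published G2/M list without the rule markers passed. Their score differed by 0.14 between the diets against a spread between sets of 0.19 (exact two-sided permutation p = 0.667). For some mitotic lists, rule markers kept, both HFD scores lay above both control scores. They were checkpoint and passenger (difference 0.47, spread 0.24), chromosome structure (0.38, 0.27), kinetochore (0.32, 0.18) and mitotic entry (0.26, 0.19). Each exact two-sided permutation p was 0.333, the smallest possible, and no gene of these lists passed. Spindle (−0.08, 0.14), cytokinesis (−0.14, 0.18) and anaphase (0.18, 0.17) scores overlapped between the diets. The rule markers chose the cells, so their levels by diet are a description: Kif18b averaged 35.5, 38.7, 17.7 and 22.03 TPM, lower in both HFD sets, and Ccnb2 averaged 274.5, 327, 263 and 301 TPM, where the diets overlapped.

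Transcripts of MHC class II, which presents peptides to helper T cells, were lower in the HFD sets. H2-Aa, a class II alpha chain (chromosome 17, 34282744 to 34287823), averaged 269, 155, 23.1 and 49.2 TPM in G2/M cells (log2 −2.56, SE 0.36, limma adjusted p = 0.00486). H2-Ab1, a beta chain (chromosome 17, 34257689 to 34269419), averaged 391, 226, 51.6 and 97.7 TPM (log2 −2.05, SE 0.34, limma adjusted p = 0.0319). Cd74, the invariant chain that escorts class II molecules, averaged 567, 338, 131 and 128 TPM (log2 −1.75, SE 0.30, limma adjusted p = 0.0412). For these 3 genes both HFD sets lay below both control sets. Of 8 class II genes tested these 3 fell, 7 had the sets apart downward, and the median was −1.80 beside 0.15 over all genes tested, of which 11.7% lay apart downward and 25.5% upward.

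The class II genes that did not pass were H2-Eb1 (−1.85, limma adjusted p = 0.146), H2-DMa (−1.69, 0.14), H2-DMb1 (−2.09, 0.146), the co-activator Ciita (−1.72, 0.611) and H2-Ob (0.34, 0.952). The class II score was 3.37, 2.51, 0.78 and 1.35, a difference of −1.87 against a spread of 0.51 (exact two-sided permutation p = 0.333, the smallest possible). Cd74 was found at 1 TPM or more in 28, 29, 11 and 16 of the 28, 31, 33 and 27 G2/M cells, H2-Ab1 in 28, 20, 8 and 13 and H2-Aa in 19, 15, 4 and 8. The 95% intervals for the share with Cd74 were 87.7 to 100% and 78.6 to 99.2% in the control sets. In the HFD sets they were 17.96 to 51.8% and 38.8 to 77.6%. They hold the counting error of cells within a set only, leave out the spread between sets and are no test of diet.

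Fabp1, a fatty acid binding protein of enterocytes, was higher on the HFD. It averaged 13.75, 50.7, 539.6 and 485 TPM (chromosome 6, 71199827 to 71205023; log2 4.21, SE 0.41, limma adjusted p = 4.99e-05) and was found in 9, 15, 30 and 23 G2/M cells. Both HFD sets lay above both control sets. The 16 enterocyte markers, Fabp1 among them, summed to means of 773, 974, 1675.8 and 1611.8 TPM in these cells. Of 11 enterocyte genes tested only Fabp1 passed, while 7 lay apart upward and 1 downward (25.5% and 11.7% of all genes). Their median was 0.61 beside 0.15 over all genes. The list's score differed by 0.57 against a spread of 0.18 (exact two-sided permutation p = 0.333, the smallest possible). Reg3b, an antimicrobial lectin, averaged 136, 83.4, 0.956 and 0 TPM (log2 −6.27, SE 0.47, limma adjusted p = 2.60e-06), from 4, 1, 1 and 0 cells; with log values averaged over cells it was −0.68 (limma adjusted p = 0.44). Its relative Reg3g did not pass (−1.74, limma adjusted p = 0.493).

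The other 4 calls also rest on few cells or on few high values. Mir5123, a short gene, was listed at 0 in both control sets and averaged 56.7 and 119 TPM in the HFD sets, from 3 cells and 1 cell. H2-Q8, a class I gene with close copies, was at 12.05 TPM in control 1, from 4 cells, and at 11.4 TPM in control 2, from 5. It was listed at 0 on the HFD. Defa17 and Defa24, Paneth cell defensins with close copies, averaged 0, 1.54, 10.2 and 119 TPM and 4.47, 7.68, 34.4 and 539.7 TPM (limma adjusted p = 0.0422 and 0.0422). Defa17 was found in 0, 1, 3 and 6 G2/M cells and Defa24 in 3, 6, 9 and 9. Their highest values in single HFD 2 cells were 2217.7 and 7293.9 TPM. Of the 8 G2/M cells with at least 3 Paneth markers 6 were in HFD 2, and the Paneth markers summed to means of 151, 20.6, 57.7 and 899 TPM. The Paneth list did not rise as a whole. Of its 7 tested genes 2 lay apart upward (25.5% of all genes), and their median was −0.37 beside 0.15. Its scores of 0.50, 0.29, 0.44 and 0.99 overlapped between the diets (exact two-sided permutation p = 0.667).

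The number of calls depended on single sets. Without control 1, control 2, HFD 1 or HFD 2, 4, 2, 0 and 9 genes passed, where the lone set of a diet is assumed to vary like the others. With Rn45s left out of the total, which moves the median of all genes from 0.15 to −0.02, 4 passed, and 1 passed among cells with 5904 to 7139 genes. Without the cells carrying at least 3 goblet or Paneth markers, a choice made after seeing the data, Fabp1, H2-Aa and Reg3b passed. With log values averaged over cells 10 passed, and 4 of the 9 were among them, Fabp1, H2-Aa, H2-Ab1 and Cd74. Over the sets left out H2-Aa stayed between −3.09 and −2.03 and Fabp1 between 3.31 and 5.12, but H2-Aa and H2-Ab1 passed only without HFD 2, Cd74 did not pass with any set left out, and Fabp1 did not pass without HFD 1.

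Cholesterol and S phase lists lay higher on the HFD without a gene passing, and the histone list lay lower. None of the 22 cholesterol genes passed, 14 lay apart upward and 2 downward, and the median was 0.78, beside 25.5% of all genes apart upward, 11.7% downward and a median of 0.15. Of 15 housekeeping genes 7 lay apart upward, with a median of 0.27. Sqle, squalene epoxidase, averaged 8.92, 17.2, 43.6 and 50.1 TPM (log2 1.83, SE 0.37, limma adjusted p = 0.128), and Hmgcs1, which makes HMG-CoA, 26.4, 34.1, 80.7 and 78.5 TPM (1.38, 0.155). Both had the HFD sets above the control sets. The list's score differed by 1.02 against a spread of 0.23. None of 43 S phase genes passed, 28 lay apart upward and none downward (25.5% and 11.7% of all genes), the median was 0.50 beside 0.15 over all genes, and the score differed by 0.68 against a spread of 0.05. Pcna averaged 177, 183, 369 and 401 TPM (1.09, limma adjusted p = 0.298). The histone list went the other way. None of its 56 genes passed, 18 lay apart downward and 7 upward (11.7% and 25.5% of all genes), and the median was −0.32. Its score differed by −0.22 against a spread of 0.09. For each of these list scores the exact permutation p was 0.333. Ccne1, cyclin E1, averaged 3.715, 7.11, 22.8 and 38.6 TPM (2.31, limma adjusted p = 0.0907). The stem cell score differed by 0.05 against a spread of 0.23, and Lgr5 by −0.19 (SE 0.31).

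Whether diet differed in its effect between G2/M and other cells was tested on the difference of the differences. No gene of 11672 passed in limma (0%), and 588 had an unadjusted p below 0.05. In the other cells 23 of 11606 genes (0.198%) passed. The 4 genes that passed in both, Fabp1, Reg3b, H2-Aa and Defa17, are 44.4% of the 9 and 17.4% of the 23. H2-Aa had −2.56 in G2/M cells and −1.81 in the others, a difference of −0.76 (SE 0.62, limma adjusted p = 0.989). Sc5d, a late enzyme of cholesterol synthesis, had 1.77 and −0.47, a difference of 2.24 (SE 0.34, limma adjusted p = 0.955). The class II score differed by −1.87 in G2/M cells and −1.61 in the others, and the cholesterol score by 1.02 and 0.58. Between the kinds of cell the class II difference was −0.27 (spread 0.53) and the cholesterol difference 0.45 (spread 0.18). Their exact permutation p-values were 0.667 and 0.333. The S phase score differed by 0.68 in G2/M cells and 0.78 in the others, a difference of −0.10 (spread 0.16, exact permutation p = 0.667).

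**Figure D5:**
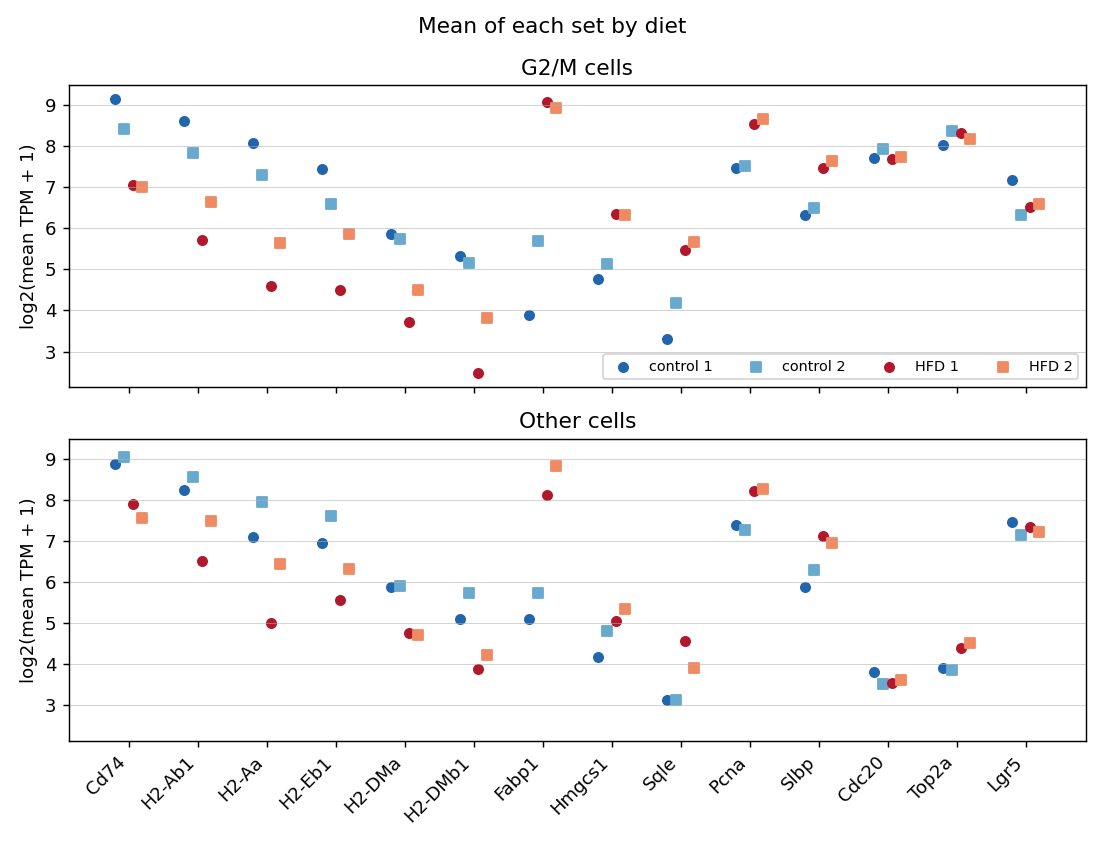
Mean level of each set (y axis, log2 of mean TPM + 1) for 14 genes (x axis), in G2/M cells (top) and other cells (bottom), 1 point per set. Both HFD sets lie below both control sets for the 6 class II genes and above them for Fabp1 in both kinds of cell, while Cdc20 and Top2a overlap between the diets in G2/M cells.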

How the data were processed

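The deposited table gives TPM per gene and cell; the authors used Bowtie2, RSEM and mm10, per the submitters' processing notes, in versions not given in the sources used here. TPM keeps no depth, so no count model was used. Cells were grouped into sets by their titles and averaged per set. Diet was tested with limma 3.58.1 (R 4.3.3) on log2(mean TPM + 1) of set means, over genes averaging at least 1 TPM, with Benjamini-Hochberg adjustment at 0.05; shares and list scores were compared with exact permutation tests in Python 3.11.15. The limma variances were moderated across genes, with a mean-variance trend within a kind of cell and without a trend for the difference of differences. The fit was also run on simulated set means with independent normal noise. That noise does not imitate genes carried by few cells, so the run is no check of such calls. Each cell filled 1 well, and no doublet caller was run. Gene coordinates are GENCODE M21 on GRCm38.

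The members and gene lists were chosen with earlier results of these data known. Named genes are the rule markers, the 20 other genes with the highest smallest ratio and 10 with the lowest largest ratio over sets, up to 5 highest-mean members of each cell cycle list, called diet genes with sets apart, class II genes and 12 stem, diet and cell cycle genes picked by name. Aldoc, Gpd1, Incenp, E2f7, Cdkn2d, Ccne1, Hmgcs1, Sqle and Sc5d were named after their values were seen. Some genes are not reported here. Alternatives were other pseudocounts, filters, averaging, scaling, marker and gene limits, a replicate block, and leaving out Rn45s, each set, or cells with goblet or Paneth markers.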

Additional observations from a re-analysis of the deposited data

Results flagged for a closer look

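The ratio of Fabp1 in G2/M over other cells pointed opposite ways in the 2 diets: on the log2 scale it was −1.23 for control 1, −0.05 for control 2, 0.95 for HFD 1 and 0.11 for HFD 2, and the diets differed by 1.18. Fabp1 averaged 13.75, 50.7, 539.6 and 485 TPM in G2/M cells and 33.6, 52.7, 278 and 449 TPM in the others. In limma the difference of the differences was 1.18 (SE 0.56, limma adjusted p = 0.966), so the test across all genes made no call.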

How the results depend on the processing

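The 4 sets limit every diet test, and depth is unknown. The share by diet was −0.344 points with Rn45s left out, 4.59 with at least 2 markers, and ran from −2.74 to 4.18 with 1 set left out. A replicate block cannot change this difference of means, so its value of 0.719 is no check. The 9 diet calls became 0 with no filter on low genes (16806 tested), 4 with Rn45s left out, 20 with at least 2 markers, 1 among cells with 5904 to 7139 genes, 10 with log values averaged over cells (4 shared), 3 without cells carrying goblet or Paneth markers, and 0 to 9 with 1 set left out. With the replicate number as a block 137 genes passed, 111 higher and 26 lower, all 9 among them; only the number is shared, since the labels do not say that it pairs sets and same-numbered deviations correlated at 0.06 in G2/M cells. The difference of differences had 0 calls under each of 15 alternatives. The 249 higher genes became 434 with log values averaged over cells (227 shared). The 12 lower genes became 35 with pseudocount 0.1, 4 with log values averaged over cells, 21 with Rn45s left out, 23 with at least 4 markers, 38 among cells with 5904 to 7139 genes, 19 without cells carrying goblet or Paneth markers, and 36 to 49 with 1 set left out. The G2/M list's diet difference was 0.14 with and without the rule markers (the latter chosen after seeing the data), −0.01 with Rn45s left out and −0.04 to 0.32 with 1 set left out. Single genes that changed sign were H2-Ob (−0.36 to 1.36 with 1 set left out) and Lgr5 (0.02 among cells with 5904 to 7139 genes, −0.62 to 0.24 with 1 set left out). Apart from the set counts, the cause of these changes was not tested.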

Other observations

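Of the genes at least 2-fold higher in G2/M cells in every set, 96 lie outside the cell cycle lists and carry no histone name. The examples here were picked after their values were seen and stand for no group. Neil3, a DNA glycosylase, averaged 68.8, 77.8, 64.1 and 56.1 TPM in G2/M cells and 3.53, 4.04, 8.89 and 6.31 TPM in the others. Esco2, which acetylates cohesin, had a mean log2 ratio of 3.82, and Fancd2, of the Fanconi anaemia pathway, 2.68. Tuba1b, an alpha tubulin, averaged 1513.2, 2267, 2130.3 and 2684.7 TPM against 367, 419.9, 519 and 488 TPM, and Kpna2, an importin, 231, 334, 378 and 362 TPM against 21.8, 26.02, 45.03 and 50.7 TPM. Stil, which acts in centriole copying, had 2.32, Mxd3, a partner of Max, 4.35, and Tk1, thymidine kinase, 2.05. The cells were chosen by their mitotic transcripts, so these values are a description.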
